A study of Brassica rapa subsp. pekinensis with 2 samples.

Results

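The 4 genes described here are the members of the starch and sucrose pathway, as the authors listed it for flower buds of Chinese cabbage (Brassica rapa subsp. pekinensis), that do not belong to its pectin-degrading branch. They were taken from the authors' deposited pathway table as the genes listed under starch and sucrose metabolism and not under pentose and glucuronate interconversions, which left 4 of 13 genes, out of 41019 genes measured. The buds came from AB02, a male sterile AB line kept as a population with sterile and fertile plants, in which a nuclear locus with multiple alleles governs sterility. Seeds were vernalized and sown in a greenhouse, and RNA of buds was sequenced in 1 library of sterile and 1 library of fertile plants. No difference given here therefore has a replicate check. Both kinds of bud share the line and the growth conditions and differ in the labelled genotype, sterile or fertile. The sources used here do not give the number of plants behind a library.

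The authors built the pathway table from genes that they had called different between these 2 libraries, so the 4 genes were chosen by their difference between sterile and fertile buds, in these same RPKM values. Those values are therefore given as a description, without a test. The recovered library totals were 1567647 reads in sterile and 1803154 reads in fertile buds, and expression is in RPKM, reads scaled to the length of the gene and to the total of the library. The labelled tissue could not be checked against its markers, because 0 of 12 marker genes of tapetum, carpel and ovule, petal, stamen and sepal had a gene paired with their code. In whole buds, fewer cells of a type and less RNA per cell cannot be told apart.

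Sucrose is the form in which plants carry carbon to organs such as the anther, and developing pollen takes up sugars and stores starch. Sucrose-phosphate synthase joins a sugar nucleotide to fructose phosphate on the way to sucrose. Fructokinase works on the other side of the pathway and phosphorylates the fructose that is set free when sucrose is split. Endoglucanases of glycoside hydrolase family GH9 cut cellulose-type glucans of the cell wall and are drawn on the same pathway map because cellulose breakdown ends in glucose. The 4 genes carried 3 Arabidopsis codes. Bra015364 was paired with SPS3F (AT1G04920), a sucrose-phosphate synthase in Arabidopsis. Bra003378 was paired with AT3G59480, which encodes a fructokinase-type sugar kinase in Arabidopsis and had no symbol in the table. Bra019455 and Bra034983 were both paired with GH9A4 (AT3G43860), an endoglucanase of family GH9 in Arabidopsis.

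All 4 genes were lower in sterile buds. The sum over the 4 genes was 2.64 RPKM in sterile and 80.7 RPKM in fertile buds. In reads this was a minimum of 9 reads in sterile and 198 reads in fertile buds, and equal levels would have given 172 reads in the smaller sterile library. Both endoglucanase copies had 0 reads in sterile buds and the sugar kinase gene a minimum of 1, while the sucrose-phosphate synthase gene held the other 8.

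**Figure D1:**
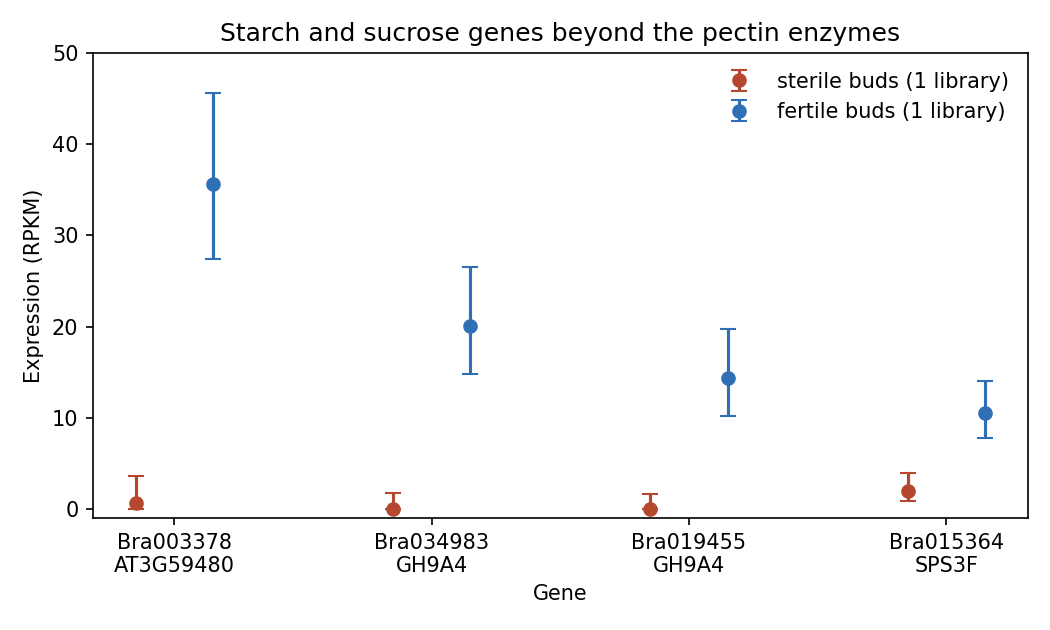
Expression in RPKM (vertical axis) of the 4 genes (horizontal axis) in the sterile library (red, left of each pair) and the fertile library (blue, right), with exact 95% Poisson intervals of the reads, which cover counting error only. The sterile values lie between 0 and 1.99 RPKM and the fertile values between 10.6 and 35.6 RPKM, and the intervals of the 2 libraries do not overlap in any of the 4 genes.

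The sucrose-phosphate synthase gene Bra015364 (SPS3F) stood at 1.99 RPKM in sterile and 10.6 RPKM in fertile buds. The exact 95% Poisson interval of the reads ran from 0.859 to 3.92 RPKM in sterile and from 7.84 to 14 RPKM in fertile buds. These levels correspond to a minimum of 8 reads in sterile and 49 reads in fertile buds over a gene of 2565 bp. Of the 4 genes it had the highest level in sterile buds and the lowest in fertile buds. It was 5.33-fold lower in sterile buds, with a 95% Clopper-Pearson counting interval from 2.5 to 13.0, and sterile minus fertile, in log2(RPKM + 1), it differed by -1.96. With equal levels 42.6 reads would have been counted in sterile buds. In the authors' deposited table its log2 fold change, there fertile over sterile, was 2.65 with a q-value of 0.000652. Over the 531 called genes above 0 in both libraries, the authors' log2 fold change exceeded the log2 RPKM ratio by a median of 0.239.

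This gene lay near the edge of the authors' calls, and so of the selection. Of the 1012 called genes in the authors' deposited table, 31 had a higher q-value than this one, up to 0.000999. Among the 431 called genes lower in sterile buds and above 0 in both libraries, 40 had a smaller RPKM ratio than SPS3F, and the smallest was 4.03. Genes of the pathway just outside the threshold cannot be given, since the files pair a pathway or an Arabidopsis code with called genes alone.

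The sugar kinase gene Bra003378 (AT3G59480) had 0.65 RPKM in sterile and 35.6 RPKM in fertile buds. It was the most abundant of the 4 in fertile buds, where its Poisson interval ran from 27.4 to 45.6 RPKM. The sterile value was a minimum of 1 read, against 63 reads in fertile buds, over 981 bp. With 1 read the fold was poorly bounded above, at 54.8-fold lower in sterile buds with a counting interval from 9.48 to 2197. In log2(RPKM + 1) the 2 libraries differed by -4.47, sterile minus fertile, the largest size among the 4 genes. The authors' deposited table gave 6.01 as its log2 fold change, fertile over sterile, with a q-value of 2.02e-08.

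Both copies of the endoglucanase gene GH9A4 had 0 RPKM in sterile buds. Bra034983 had 0 reads in sterile and 48 reads in fertile buds, where it reached 20 RPKM. Bra019455 had 0 reads in sterile and 38 reads in fertile buds, where it reached 14.4 RPKM. These read numbers are exact, because for genes at 0 in a library the deposited fold changes are whole multiples of 1 value. A count of 0 was set against a floor of 3 reads, while the Poisson interval of 0 reads runs up to 3.69. In sterile buds 3 reads are worth 1.44 RPKM for Bra034983 and 1.31 RPKM for Bra019455. Against 3 reads Bra034983 was 13.9-fold lower and Bra019455 11.0-fold lower in sterile buds. The lower ends of the counting intervals, which also include the error of the fertile reads, were 10.9 for Bra034983 and 8.53 for Bra019455.

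In log2(RPKM + 1), sterile minus fertile, Bra034983 differed by -4.39 and Bra019455 by -3.95. The authors' deposited table gave a log2 fold change, fertile over sterile, of 5.85 with a q-value of 1.68e-06 for Bra034983. For Bra019455 the authors' deposited table gave 5.52 with a q-value of 3.35e-05. Those values set a fixed stand-in for the count of 0 and are no lower bounds. The lengths behind the RPKM values were 1329 bp for Bra034983 and 1461 bp for Bra019455, so the copies are not annotated at the same length. Near-identical copies can share reads, and the sources used here do not say how reads with several matches were counted. Summed over both copies, GH9A4 had 0 reads in sterile and 86 reads in fertile buds. The sum does not depend on how shared reads are divided between the copies. It would be too high if shared reads were counted at both copies, and too low if they were left out. Against 3 reads over both copies the sum in sterile buds was 24.9-fold lower, with 19.8 as the lower end of the counting interval. Both values would be too high if shared reads were counted at both copies.

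Per length, the fertile levels of the 4 genes ran from the sugar kinase Bra003378 at 35.6 RPKM through Bra034983 at 20 RPKM and Bra019455 at 14.4 RPKM to SPS3F at 10.6 RPKM. Neighbours lower in that order were not set apart by the reads. The level of Bra034983 over that of Bra019455 was 1.39 with a counting interval from 0.888 to 2.18, and that of Bra019455 over SPS3F was 1.36 with an interval from 0.867 to 2.12. The sugar kinase gene exceeded Bra034983 by 1.78-fold, with an interval from 1.2 to 2.64 that leaves out equality. In sterile buds the order was different, with SPS3F at 1.99 RPKM above the sugar kinase at 0.65 RPKM and both GH9A4 copies at 0. The Poisson interval of SPS3F in sterile buds overlapped those of the other genes, which reached 3.62 RPKM for the sugar kinase, 1.77 RPKM for Bra034983 and 1.61 RPKM for Bra019455. The counting interval of the fold of SPS3F, up to 13.0, also overlapped those of the other 3 genes taken singly, whose lower ends lay between 8.53 and 10.9. It lay below the lower end of 19.8 for the sum of both GH9A4 copies. That sum pools the reads of 2 genes against 1, and its lower end would be too high if shared reads were counted at both copies. The difference between genes in the size of the fold was not tested.

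Set beside the genes kept, the 4 ranked from the middle upward in fertile buds. Of the 27940 genes kept, which reached 1 RPKM in sterile or fertile buds, 52.3% lay below SPS3F in fertile buds, 59.5% below Bra019455, 66.8% below Bra034983 and 78.4% below the sugar kinase gene. In sterile buds 19.6% of the genes kept lay below SPS3F and 9.55% below the sugar kinase gene. All 4 genes were kept, but 3 of them through the fertile library alone, as they were below 1 RPKM in sterile buds. By a rule of size, log2(RPKM + 1) differing by 1 or more, 4 of 4 counted as lower in sterile buds, as did 14.5% of the genes kept, while 11.5% of the genes kept counted as higher. With a difference of 2 or more, 3 of 4 counted as lower, as did 6.76% of the genes kept. All 4 were listed as lower in sterile buds in the authors' deposited table, and 3.24% of the genes kept were. The 2 GH9A4 copies were at 0 in sterile buds with at least 10 RPKM in fertile buds, as were 2.27% of the genes kept. Since the same contrast chose the 4 genes, nothing is read from these shares. The median difference was -4.17 over the 4 genes, 0.17 over the genes kept and -4.84 over the 906 genes that the authors called lower in sterile buds.

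**Figure D2:**
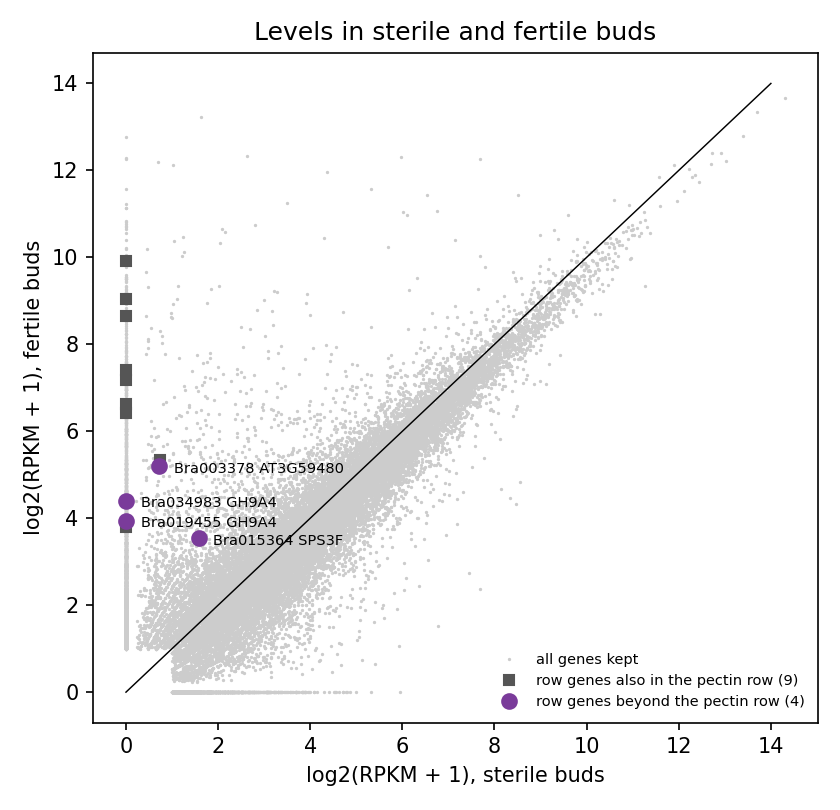
log2(RPKM + 1) in sterile buds (horizontal axis) and fertile buds (vertical axis) for the 27940 genes kept (grey points), the 4 genes described here (purple circles) and the 9 pectin genes of the same pathway (dark squares), with 1 library per axis and a line at equal levels. The 4 genes lie above the line, at fertile levels from the middle of the grey points upward, and below most of the pectin genes.

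Genes of a like fertile level are given for scale only. The 4 genes were chosen by this same contrast, so that they stand apart from such genes was fixed in advance. Between 10 and 40 RPKM in fertile buds, a range chosen after the values of the 4 genes had been seen, there were 8208 genes. Their median was 20.5 RPKM in sterile and 19.0 RPKM in fertile buds. Of these genes 4.2% were at 0 in sterile buds and 12.2% counted as lower by the same rule of size.

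Within the starch and sucrose pathway the 4 genes made up the small part of the signal. Its 13 genes were all listed as lower in sterile buds, as were 89.5% of all 1012 called genes. The other 9 were the pectin enzymes, among them 4 copies of the polygalacturonase PGA4 and 2 of the pectin methylesterase PPME1. The 9 pectin genes ranged from 12.8 RPKM for Bra007332 (ADPG1, a polygalacturonase) to 959 RPKM for Bra033347 (PGA4) in fertile buds. The 4 genes held 79.8% of the summed RPKM of the 13 genes in sterile buds and 3.22% in fertile buds. The sterile share rests on at least 9 reads in the 4 genes and 1 read in the 9 pectin genes. In fertile buds the 4 genes had 198 reads and the pectin genes 5414 reads. The reads of SPS3F, the sugar kinase and, among the pectin genes, Bra036219 (PME31) are minima, and those of the other genes are exact. Ranked by the difference on the log2(RPKM + 1) scale, the 4 genes took places 9, 10, 11 and 13 of 13, and ADPG1 took place 12. The median difference was -4.17 for the 4 genes and -7.17 for the 9 pectin genes. Because most of these genes were at or near 0 in sterile buds, the order follows the fertile level, in which the 4 genes held the same places.

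**Figure D3:**
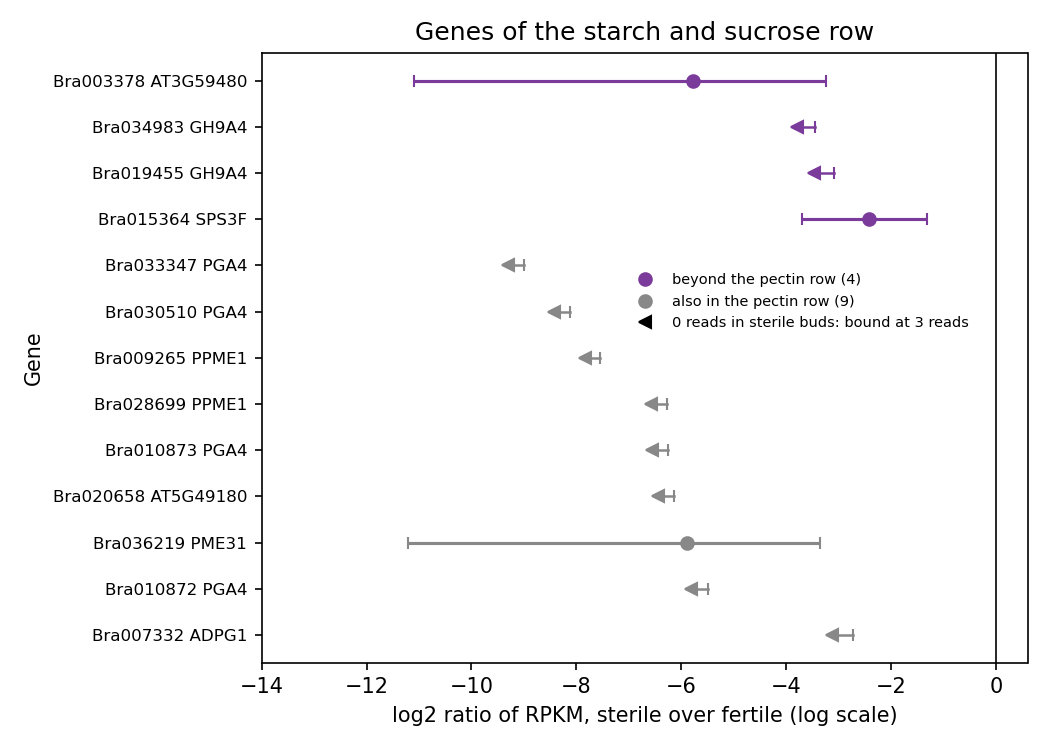
log2 ratio of RPKM, sterile over fertile (horizontal axis, log scale), for the 13 genes of the starch and sucrose pathway (vertical axis), with the 4 described here in purple and the 9 pectin genes in grey. Circles with bars are ratios with 95% counting intervals. Triangles, marked as bounds, are ratios against a floor of 3 reads for genes with 0 reads in sterile buds. The tick to the right of a triangle is the end of its counting interval. For the 4 genes the ratios are -5.78 for the sugar kinase and -2.41 for SPS3F, which is nearest to 0 of the 13. The ratios against 3 reads are -3.8 for Bra034983 and -3.46 for Bra019455.

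In the authors' deposited table the pathway was represented by 8 of 119 Arabidopsis genes. Its p-value there was 0.0472 before and 0.805 after the authors' correction. Of those 8 codes, 3 came from the genes described here. The sugar kinase Bra003378 was also listed under fructose and mannose metabolism and under amino sugar and nucleotide sugar metabolism, each with 2 genes, all lower in sterile buds. The corrected p-value of both was 1 in the authors' deposited table. All 4 genes were also listed under metabolic pathways, a broad group of 71 called genes with 62 lower and 9 higher in sterile buds. That is 87.3% lower, beside 89.5% of all called genes, so nothing is read from the directions in these groups.

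A wider look at sugar metabolism was limited by the names. A list of 43 Arabidopsis genes of sucrose cleavage, starch synthesis and starch breakdown, which held sucrose synthases, invertases, starch synthases and amylases, matched 0 genes. A list of 9 sugar transporters of pollen also matched 0 genes. Codes were paired with 225 of the 1012 called genes. A gene of these lists could not be found if it was among the 787 called genes without a code or had not been called. The 0 matches therefore do not give the levels of such genes. Every called gene that the authors placed in the starch and sucrose pathway had a code, and none of the 43 was among them. Whether genes of either list were among the called genes without a code cannot be told. The sucrose-phosphate synthase and fructokinase codes were not part of the list.

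The named genes whose levels in both libraries were most like those of each gene were found by their distance on the log2(RPKM + 1) scale over the 2 libraries. Only the 225 called genes with a code were searched, so each neighbour had been chosen by the same contrast. The distances therefore do not show how usual the levels of a gene are among all genes. For Bra019455 they were Bra022844 (CPK24, a calcium-dependent protein kinase), Bra013168 (HA6, a plasma membrane proton pump) and Bra026583 (AT2G02720, a pectate lyase in Arabidopsis), at 0 RPKM in sterile and 14.4 to 14.5 RPKM in fertile buds. Bra034983 was nearest to Bra006279 (AT5G15110, also a pectate lyase), at 0 RPKM in sterile and 20.2 RPKM in fertile buds, followed by Bra032507 (AT1G04470) and Bra039021 (MIOX2, a myo-inositol oxygenase). The sugar kinase Bra003378 was nearest to Bra036219 (PME31, a pectin methylesterase), which had 0.669 RPKM in sterile and 39.5 RPKM in fertile buds, followed by Bra030706 (APX1, an ascorbate peroxidase) and Bra022241 (GAD5, a glutamate decarboxylase). SPS3F was nearest to Bra028805 (SDP1, a triacylglycerol lipase), which had 1.58 RPKM in sterile and 12.8 RPKM in fertile buds. Bra036196 (ERD5, a proline dehydrogenase) and Bra016955 (AT2G41020) followed. For SPS3F the distance to the nearest was 0.331, against 0.000193 for Bra019455, 0.0113 for Bra034983 and 0.147 for the sugar kinase gene. For the GH9A4 copies any gene at 0 in sterile buds with a like fertile level comes out near.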

How the data were processed

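RNA of sterile and fertile buds was sequenced in 1 library each. Reads were processed with TopHat, per the submitters' processing notes; the sources used here name no version, build, annotation or counter. Per the file headers, the authors deposited RPKM values, and for their called genes log2 fold changes of fertile over sterile together with a p-value and a q-value. The authors' deposited pathway table gave counts of Arabidopsis genes with p-values.

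The members and lists were chosen with earlier results of these data known. The table held 51357 features; 10338 ribosomal RNA features were left out. No gene identifier of the 4 members was found in RefSeq's table of genes for CAAS_Brap_v3.01, and no sequences or coordinates are given.

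Reads were recovered from the deposited folds of the 481 called genes at 0 in a library, within 9.2e-11 of whole numbers. Library totals assume gene lengths in steps of 3 bp. For genes above 0 in both libraries the smallest whole reads, within 0.0001, were used, and the true reads can be a multiple. Levels were compared as log2(RPKM + 1), which understates differences of low genes. Intervals are exact at 95% and cover counting error only. Folds against the floor of 3 reads are not ends of these intervals. With 1 library per group no test was run. Alternatives were the pseudocount, the scaling, the filter, the size of difference and the length step. Named genes were the 4 members, the highest and lowest pectin gene of the row, and for each member the 3 nearest called genes with a code. Calculations used Python 3.11.15, numpy 2.4.6, pandas 2.3.3 and scipy 1.17.1, and were tested on simulated data.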

Additional observations from a re-analysis of the deposited data

How the results depend on the processing

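By a difference of at least 1, all 4 genes counted as lower in sterile buds under each pseudocount and scaling tried. SPS3F came nearest to that limit, at -1.16 with a pseudocount of 5. The direction itself could not change, since a pseudocount keeps the order of 2 values and both scalings lowered the sterile values. Leaving out the filter could not change the count either, as genes below 1 RPKM in both libraries cannot differ by 1. When a difference of at least 2 was asked for, 3 of 4 counted as lower, SPS3F being the exception, and 1888 of all genes, against 4042 at a difference of at least 1. The size on the log2 scale depended on the pseudocount for the genes at or near 0 in sterile buds. With a pseudocount of 0.1 the difference was -7.18 for Bra019455, -7.65 for Bra034983 and -5.57 for Bra003378. With a pseudocount of 5 it was -1.96 for Bra019455, -2.32 for Bra034983 and -2.85 for Bra003378, and 1935 of all genes counted as lower. These shifts follow from adding a constant to values near 0. The other 24 values moved by less than their counting interval or, for counts, by less than 1.5 times. The scalings moved the sterile log2 values by -0.202 (median ratio) and -0.234 (trimmed mean). They could not move the differences of the GH9A4 copies, because a value of 0 in sterile buds stays 0, so these are no check. Steps of 1 bp in gene length could not change the folds, because the step rescales both library totals alike. That setting is therefore no check of the folds. The library totals and the lengths in bp given here do depend on the step. No paired analysis was possible because each group had 1 library. Depth limits the upper end of the folds, since 3 of the 4 genes had at most 1 recovered read in sterile buds.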

Other observations

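The 5 identifiers before and the 5 after each of the 4 genes were looked at after the values had been seen, without knowledge of whether neighbouring identifiers lie side by side in the genome. Of these 40 genes, 26 were kept, and 0 of the 40 were called by the authors in either direction. In log2(RPKM + 1), 2 of the 26 counted as lower in sterile buds by 1 or more and 3 counted as higher, and the differences, sterile minus fertile, ran from -1.64 to 1.36. Over all genes kept, 14.5% counted as lower and 11.5% as higher. Of the 41019 genes measured, 1012 were called in either direction, so nothing is read from 0 calls among 40.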
